A study of Mus musculus with 15 samples.

Results

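Chromatin accessibility at 9 genes that encode WNT ligands (Wnt3, Wnt4, Wnt5a, Wnt7a, Wnt7b, Wnt9a, Wnt10a, Wnt10b and Wnt11) was examined in sorted mouse pancreatic tumour cells. The members were the merged ATAC-seq peaks that overlapped, or lay within 20 kb of, the mm10 body of 1 of these genes. They numbered 44 of 67945 peaks and fell at 8 of the 9 genes. ATAC-seq inserts sequencing adapters into open DNA, so reads accumulate where chromatin is accessible. Each library came from 50000 cells sorted from the tumour of 1 clonal tumour cell line, taken 3 weeks after the clone was placed under the skin of a C57BL/6 mouse, with no treatment in either group. The T cell high group held 2838c3, 6421c2 and 6499c4 with 6555c3, 6620c1 and 7160c2 (6 clones). The T cell low group held 2699c4 and 6419c1 with 6419c5, 6422c1 and 6499c3, and also 6556c3 and 6694c2 (7 clones). The group names are the labels' class for the T cell phenotype of a clone's tumours. Clones 6419c1 and 6419c5 share a leading number, as do 6499c4 and 6499c3, which lie in opposite groups. With 1 library per clone, differences between clones and between single tumours of a clone cannot be told apart.

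WNT proteins are secreted, lipid-modified ligands, which Porcn acylates and Wls carries to the cell surface. Binding to Frizzled receptors with the co-receptor LRP5 or LRP6 stabilises beta-catenin, which then activates genes through TCF and LEF factors. Ligands such as Wnt5a and Wnt11 act largely through pathways that do not need beta-catenin. In the pancreas, WNT signalling takes part in organ growth and in tumour cell growth, and beta-catenin activity in tumour cells has been linked to low T cell infiltration in other cancers.

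Peaks covered the listed start of Wnt7a, Wnt4 and Wnt9a and the second listed start of Wnt11. No peak covered the starts of Wnt3 and Wnt10b or the first start of Wnt11. The Wnt7a window is shown because that gene differed most between the groups, both Wnt11 windows because 1 was covered and the other not, and the Wnt3 window because the gene had no peak. Each runs from 250 bases before to 50 after the start, 5' to 3' on the gene's strand, from RefSeq on GRCm38.p6, the assembly behind mm10. Capitals mark matches, on either strand, to 5 motifs. The GC box was searched as GGGCGG. For TCF and LEF factors the letters were CTTTGAT, or alternatively CTTTGTT. The AP-1 motif was TGANTCA, and the TATA box was written TATAAA.

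Wnt7a start, chr6:91411304-91411603, minus strand: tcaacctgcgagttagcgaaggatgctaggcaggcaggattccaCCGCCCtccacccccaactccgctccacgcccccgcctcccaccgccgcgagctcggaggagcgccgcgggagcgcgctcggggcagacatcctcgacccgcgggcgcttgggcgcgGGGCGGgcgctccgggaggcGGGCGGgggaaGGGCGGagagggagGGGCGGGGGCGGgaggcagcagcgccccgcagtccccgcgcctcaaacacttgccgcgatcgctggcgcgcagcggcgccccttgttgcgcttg
Wnt11 first start, chr7:98834862-98835161, plus strand: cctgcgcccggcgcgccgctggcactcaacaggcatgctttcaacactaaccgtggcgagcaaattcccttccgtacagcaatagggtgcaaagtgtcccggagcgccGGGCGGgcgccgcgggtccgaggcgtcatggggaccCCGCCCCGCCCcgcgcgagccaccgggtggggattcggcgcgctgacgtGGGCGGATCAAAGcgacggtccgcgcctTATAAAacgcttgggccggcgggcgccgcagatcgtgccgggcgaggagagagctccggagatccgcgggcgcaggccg
Wnt11 second start, chr7:98838595-98838894, plus strand: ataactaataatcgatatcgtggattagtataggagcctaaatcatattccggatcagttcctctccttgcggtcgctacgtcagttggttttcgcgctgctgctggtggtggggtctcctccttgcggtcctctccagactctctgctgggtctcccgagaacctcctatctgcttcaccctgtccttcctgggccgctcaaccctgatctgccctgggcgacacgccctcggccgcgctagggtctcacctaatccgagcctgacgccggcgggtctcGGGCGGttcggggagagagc
Wnt3 start, chr11:103773925-103774224, plus strand: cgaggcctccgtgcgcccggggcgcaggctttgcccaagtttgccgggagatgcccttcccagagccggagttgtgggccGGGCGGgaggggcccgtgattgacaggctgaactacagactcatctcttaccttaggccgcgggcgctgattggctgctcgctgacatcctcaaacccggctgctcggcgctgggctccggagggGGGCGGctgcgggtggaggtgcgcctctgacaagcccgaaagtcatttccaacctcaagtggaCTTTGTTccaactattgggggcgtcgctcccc

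The Wnt7a window held 42 CpG and 6 GC boxes, the latter counted with overlaps. The uncovered first Wnt11 window held 45 CpG, 4 GC boxes, 1 CTTTGAT and 1 TATAAA, and the covered second window held 23 CpG and 1 GC box. The Wnt3 window held 24 CpG, 2 GC boxes and 1 CTTTGTT. Over the windows of protein-coding genes the median was 22 CpG where a peak covered the start and 4 where none did. The uncovered starts of Wnt3 and Wnt11 thus held more CpG than the median covered start, while the uncovered Wnt10b start, with 18 CpG, held fewer. Of all 32851 windows in the table, 35.7% held GGGCGG, 3.73% CTTTGAT, 5.85% CTTTGTT, 7.81% TGANTCA and 13.6% TATAAA. Matches are descriptions of letters and show no binding.

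Reads in peaks ranged from 968296 in 7160c2 to 7369228 in 6419c1. Values below are CPM, the reads in a peak relative to the TMM-scaled total of reads in peaks, and a window is the sum over all peaks of a gene. Cell type markers were read by peaks at the gene start or at an end of the gene record, which need not be the start. All 9 ductal tumour cell markers examined, among them Krt19 and Epcam, had such a peak, and 9 of 10 T and NK cell markers, among them Cd3e and Cd8a, had none listed. Of 7 pan-leukocyte markers, 4 (Ptprc, Cd53, Coro1a and Itgb2) had such peaks. Their summed accessibility spanned 26.3 to 78.9 CPM in T cell high and 56.3 to 96.0 CPM in T cell low clones. Of 8 endothelial markers, only Sox17 had such peaks, which summed to between 1.03 and 86.3 CPM in T cell high and between 2.79 and 42.1 CPM in T cell low clones. Over both groups, 1 of 9 fibroblast and pericyte markers (Col1a1) spanned 16.4 to 37.1 CPM. Of 8 macrophage and monocyte markers, 1 (Cd68) spanned 1.82 to 18.4 CPM. Sums for 2 of 8 skin keratinocyte markers (Ivl and Lor) spanned 14.6 to 56.0 CPM. For 3 of 10 acinar and islet markers (Cela1, Bhlha15 and Pdx1) they spanned 45.0 to 115.7 CPM. Peaks at a few markers of a list do not show that its cells were present. The part of cells other than tumour cells in the values below was not tested.

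None of the 43 tested member peaks passed an adjusted p of 0.05 between the T cell high group and the T cell low group by edgeR's quasi-likelihood test with Benjamini-Hochberg adjustment. The share passing over all 59252 tested peaks was 0.0%. An unadjusted p under 0.05 was reached by 4 member peaks, or 9.3%, against 6.83% of all tested peaks, and all 4 lay at Wnt7a. They were higher in T cell high, as were 3.86% of all tested peaks at that p, and 0 members were lower, against 2.97%. Fold changes (T cell high over T cell low, log2) were above 0 at 18 member peaks and below 0 at 25, with a median of -0.04 against 0.01 over all tested peaks. At no member peak did the groups fail to overlap, against 0.162% of all tested peaks. DESeq2 and limma-voom also called 0 member peaks, against 0.0793% and 0.0% of all peaks, and each gave 5 an unadjusted p under 0.05, against 7.79% and 8.52% of all peaks. Summed over windows, 0 of 8 genes passed, against 0.0119% of 16820 tested gene windows, and 1 gene, Wnt7a, had an unadjusted p under 0.05, against 6.62% of all windows (2.82% higher and 3.8% lower in T cell high). DESeq2 called 0.0892% and limma-voom 0.0% of all windows but 0 members, and gave 1 member, Wnt7a, an unadjusted p under 0.05, against 7.14% and 7.12%.

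**Figure D1:**
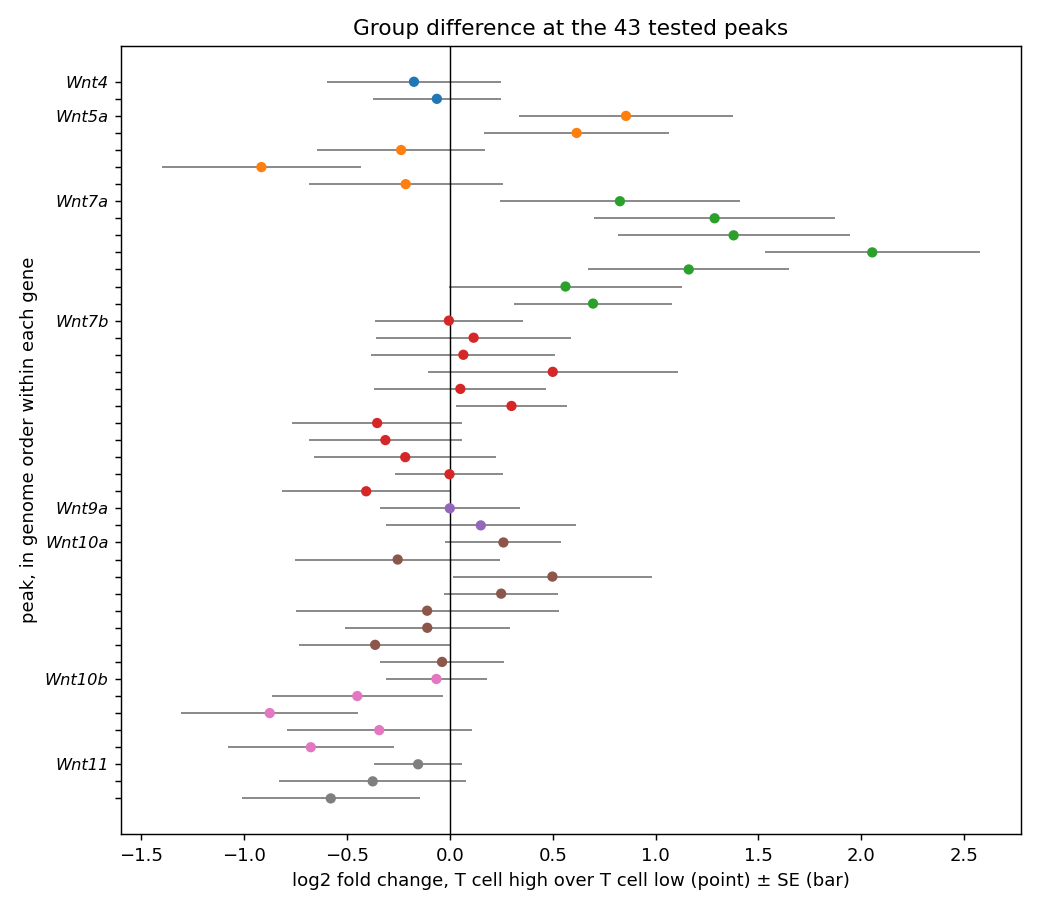
Log2 fold change, T cell high over T cell low (x axis), with its SE (bars), for the 43 tested peaks in genome order within each gene (y axis; colours mark genes). All 7 tested Wnt7a peaks lie above 0, and the other 36 lie between -0.92 and 0.86.

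Wnt7a, a ligand that activates beta-catenin signalling in several epithelia, had the widest spread over clones and the largest group difference of the 8 genes with peaks. It lies at chr6:91363981-91411353 (gene ID 22421), and all 8 of its peaks were in the gene body. In T cell high clones the window summed to 42.1 CPM in 2838c3, 29.1 in 6421c2, 80.3 in 6499c4, 186.4 in 6555c3, 95.7 in 6620c1 and 105.1 in 7160c2. In T cell low clones the lowest value was 10.7 CPM in 6419c1, the median 32.3 and the highest 63.9 in 6694c2. Thus 4 of 6 T cell high clones exceeded the highest T cell low value, while 2838c3 and 6421c2 lay within the T cell low range. The log2 fold change was 1.23 (SE 0.37), or 2.34-fold, with an unadjusted edgeR p of 0.0029 and an adjusted p of 0.577. Within the pair that shares the number 6499, the T cell high clone had 80.3 CPM and the T cell low clone 55.9.

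**Figure D2:**
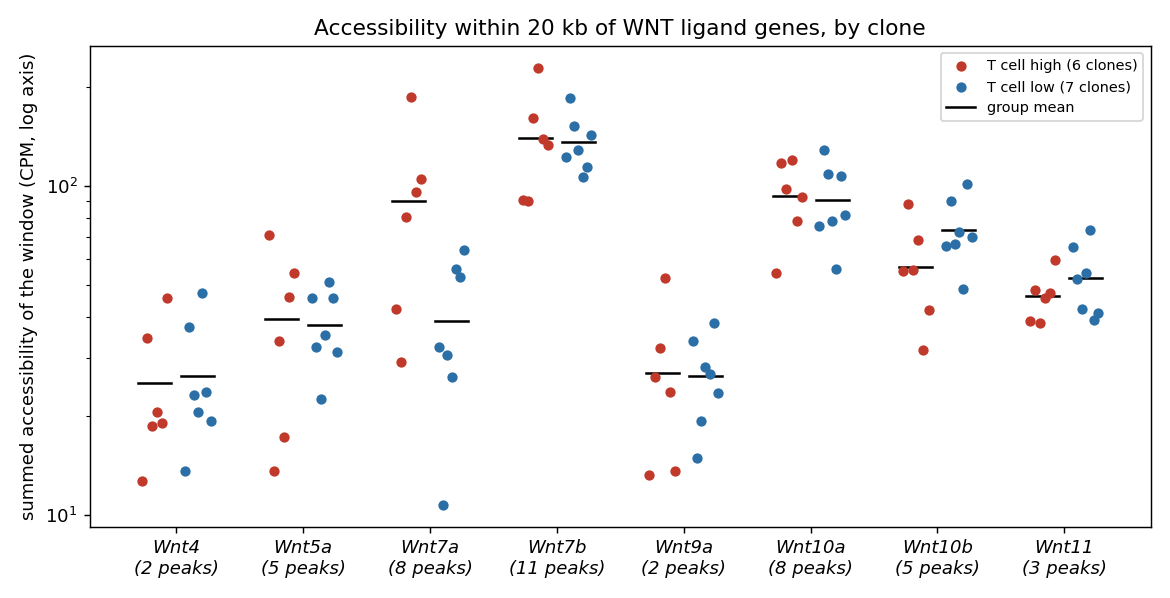
Summed accessibility (CPM, log axis) of the peaks within 20 kb of each gene, 1 point per clone, with group means as lines. At Wnt7a 4 T cell high clones exceed 63.9 CPM, the highest T cell low value, and at every gene the groups overlap.

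The peak at chr6:91389005-91389663, 21690 bp inside the gene from its start, was the most accessible of Wnt7a and had the smallest p of all members. It held 4.91 CPM in 2838c3, 5.45 in 6421c2, 24.3 in 6499c4, 59.6 in 6555c3, 42.995 in 6620c1 and 27.3 in 7160c2. The T cell low clones spanned 2.23 CPM in 6419c1 to 14.4 in 6499c3, with a median of 4.76. The same 4 T cell high clones as in the window exceeded the highest T cell low value. The peak is part of the window sum and held 26.1% of it over all clones, so the 2 are no separate measurements. Its values rest on 8 to 150 reads per library. The log2 fold change was 2.05 (SE 0.52), with an unadjusted p of 0.00069 and an adjusted p of 0.493 by edgeR. DESeq2 gave an adjusted p of 0.081 and limma-voom 0.508.

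The other 3 peaks with an unadjusted p under 0.05 also lay inside the gene. At chr6:91372750-91373389, 37964 bp from the start, clone 6555c3 reached 34.4 CPM and the other 5 T cell high clones 3.03 to 10.7. T cell low clones there spanned 0.836 to 14.5 CPM. The log2 fold change of 1.29 (SE 0.59, edgeR adjusted p 0.715) was 0.54 without 6555c3. The peak at chr6:91383705-91384314, 27039 bp from the start, spanned 2.12 to 12.7 CPM in T cell high and 0 to 5.43 CPM in T cell low clones. Clone 6419c5 had 0 reads there, which allows up to 1.61 CPM, and the log2 fold change was 1.38 (SE 0.56, edgeR adjusted p 0.686). At chr6:91400176-91401031, 10322 bp from the start, T cell high clones spanned 4.24 to 18.5 CPM and T cell low clones 1.11 to 12.1 CPM. Its log2 fold change was 1.16 (SE 0.49, edgeR adjusted p 0.696).

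The peak over the Wnt7a start (chr6:91410748-91412150), which is longer than the start window printed first above and contains it, differed less. It held 9.30, 9.69, 15.7, 21.8, 20.2 and 23.4 CPM in the T cell high clones, in the order listed above, and 3.07 to 17.7 CPM in T cell low clones. The log2 fold change was 0.70 (SE 0.38, unadjusted p 0.082 and adjusted p 0.77 by edgeR). This peak also covers the start of the lncRNA gene Gm30437, and reads of the 2 genes cannot be told apart. Wherever they were tested, the 7 Wnt7a peaks kept a fold change above 0 under the alternatives run on peaks, except that the peak at chr6:91369835-91370520 (0.83, SE 0.58) was at -0.13 without 6555c3. The peak at chr6:91401989-91402354 was not tested with the 6419 clones summed or without 2699c4, 6419c5 or 6694c2. Clone 6555c3 was the highest of the 13 at 5 of the 8 Wnt7a peaks and 7160c2 at the other 3. Clone 6419c1 was the lowest at 5.

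**Figure D3:**
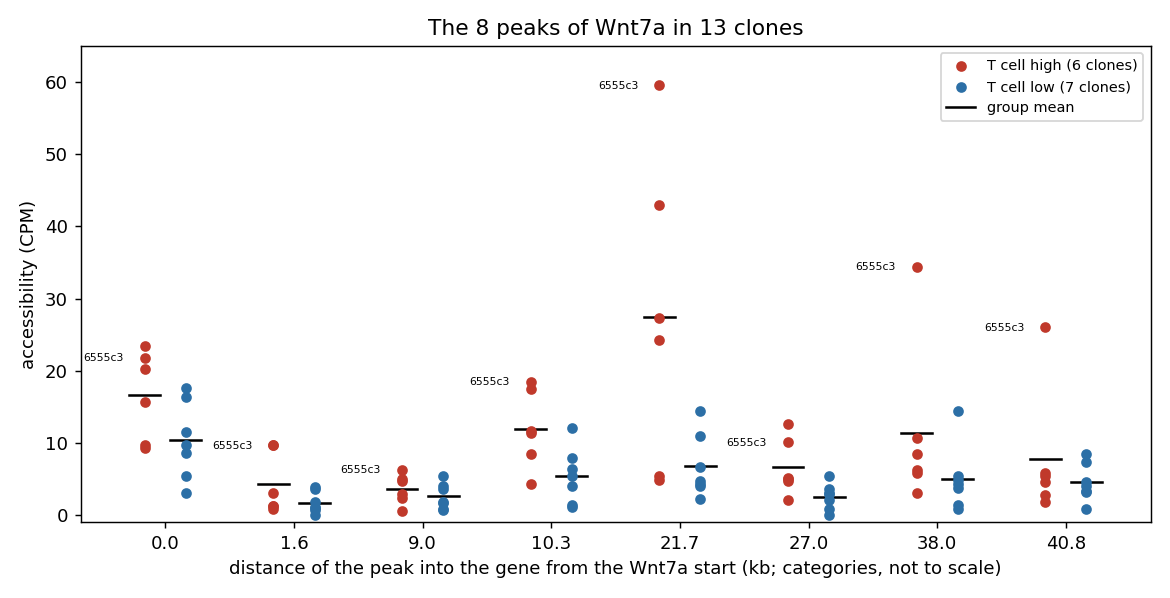
Accessibility (CPM, y axis) of the 8 Wnt7a peaks in each clone, ordered by distance from the gene start (x axis, kb, categories not to scale), with group means as lines and clone 6555c3 labelled. The peak 21690 bp from the start spans 4.91 to 59.6 CPM in T cell high and 2.23 to 14.4 CPM in T cell low clones.

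The chromosomal surroundings of Wnt7a varied in the same direction in part. The median accessibility of 148 peaks within 2 Mb, relative to each peak's mean over clones, was 0.29 (log2) in 7160c2 and 0.25 in 6555c3, and -0.22 in 6419c1. It was also 0.25 in the T cell low clone 6694c2. With these regional values as offsets, the Wnt7a window difference was 1.06 and that of the peak inside the gene 1.85. What sets the regional values was not tested.

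Wnt7b, the close relative of Wnt7a and a ligand made by some pancreatic cancer cells, had the most peaks. Its 11 peaks lie at and around chr15:85535437-85581821. The window spanned 89.9 CPM in 6421c2 to 228.8 in 6555c3 in T cell high clones (median 136.2) and 106.7 to 185.3 in T cell low clones (median 128.6). The groups overlapped throughout, and the log2 fold change was 0.04 (SE 0.20). The most accessible peak (chr15:85574310-85575321, in the gene body) held 12.1 to 41.6 CPM in T cell high and 14.4 to 33.8 CPM in T cell low clones, which gave a log2 fold change of 0.30 (SE 0.27). At the peak with the widest spread (chr15:85538004-85538635), 6555c3 had 29.0 CPM and 6419c1 had 16.6, while 2838c3 had 1.03. The group difference there was 0.50 on the log2 scale (SE 0.61), but -0.40 without 6555c3, -0.028 with limma-voom and 1.10 without 6419c1. The peak at the upper end of the gene record (chr15:85581307-85582184) spanned 4.39 to 11.98 and 4.64 to 17.7 CPM in the 2 groups, which gave a log2 fold change of -0.31 (SE 0.37), and overlaps the lncRNA gene AU022754.

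Wnt10a and Wnt10b are paralogues that act through beta-catenin, known from skin appendages and from fat and bone. The Wnt10a window (8 peaks around chr1:74792019-74804176) spanned 54.5 to 120.0 CPM in T cell high and 55.9 to 128.2 CPM in T cell low clones, which gave a log2 fold change of 0.04 (SE 0.20). A peak 973 bp from the Wnt6 start and a peak over a tRNA gene held 32.5% of it. The peak nearest an end of the gene record, and also its most accessible (chr1:74802841-74803679), spanned 13.2 to 36.9 CPM in T cell high and 12.8 to 26.6 CPM in T cell low clones, which gave a log2 fold change of 0.25 (SE 0.28). A small peak 1365 bp outside the gene (chr1:74805541-74805779) had 0 reads in 6499c3, which allows up to 0.981 CPM, and 9.11 CPM in 6556c3. The group difference there was -0.11 on the log2 scale (SE 0.64).

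The Wnt10b window (5 peaks around chr15:98770712-98778206) held 55.3, 88.1, 55.4, 68.4, 31.6 and 41.9 CPM in the T cell high clones, in the order listed above. T cell low clones spanned 48.7 CPM in 6499c3 to 101.1 in 6556c3, with a median of 70.0. All 5 of its peaks had fold changes below 0 (log2 -0.88 to -0.07), although the peak at the Arf3 start was above 0 with regional offsets (0.12) and without 6620c1, 7160c2 or 6419c1, and the window's was -0.36 (SE 0.22, edgeR adjusted p 0.767). Peaks at the starts of Arf3 and Wnt1 held 59.2% of the window, and without them the difference was -0.52. With regional offsets it was -0.17. The peak nearest the start (chr15:98776277-98776898) spanned 0.973 to 7.87 CPM in T cell high and 3.22 to 14.6 CPM in T cell low clones, which gave a log2 fold change of -0.88 (SE 0.43, edgeR adjusted p 0.735). It rests on 1 read in 7160c2. At the widest-spread peak (chr15:98780083-98781037) 6421c2 had 25.7 CPM and the other T cell high clones 2.53 to 10.1, against 4.08 to 29.1 CPM in T cell low clones. Its log2 fold change was -0.34 (SE 0.45), and it was -0.89 without 6421c2, -0.51 without 2699c4, -0.15 without 6620c1 and -0.07 without 6556c3. The most accessible peak of the window, at the Arf3 start (chr15:98762137-98763600), spanned 17.5 to 35.7 CPM and 19.3 to 43.1 CPM, which gave a log2 fold change of -0.07 (SE 0.24).

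Wnt9a, known from joint and skeletal development, had 2 peaks at chr11:59306849-59333552, 1 of them over its start. Both also lie within 20 kb of Wnt3a. The window spanned 13.2 CPM in 2838c3 to 52.5 in 6555c3 in the T cell high group and 14.9 to 38.3 CPM in the T cell low group, which gave a log2 fold change of 0.06 (SE 0.30). The start peak (chr11:59306420-59307364) spanned 5.84 to 26.4 and 9.48 to 20.3 CPM, with a difference of -0.00041 on the log2 scale (SE 0.34). The second peak (chr11:59307714-59308480) varied more, from 2.58 CPM in 2838c3 to 26.0 in 6555c3, and from 4.83 to 24.6 CPM in T cell low clones. Its log2 fold change was 0.15 (SE 0.46).

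Wnt3, a ligand of the classical beta-catenin pathway, had no peak within 20 kb of chr11:103774175-103818021. The nearest, at chr11:103838930-103839641, lay 20909 bp away. Of 21883 protein-coding genes, 78.4% had a peak within that distance, with a median of 3 peaks.

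Wnt4, which acts with or without beta-catenin depending on the tissue, had 2 peaks at chr4:137277635-137299501. The window spanned 12.7 CPM in 2838c3 to 45.8 in 7160c2 in the T cell high group and 13.6 CPM in 2699c4 to 47.1 in 6499c3 in the T cell low group, with medians of 19.8 and 23.1. Both groups thus covered the same range, and the log2 fold change was -0.12 (SE 0.32). The start peak (chr4:137276773-137277955) spanned 4.39 to 26.3 and 5.44 to 31.1 CPM, which gave a log2 fold change of -0.17 (SE 0.42).

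Wnt5a, the main ligand of the pathways that do not need beta-catenin, signals through Ror and Frizzled receptors. It had 5 peaks around chr14:28504543-28527448. The window held 71.0 CPM in 2838c3, 13.6 in 6421c2, 33.7 in 6499c4, 17.2 in 6555c3, 45.9 in 6620c1 and 54.5 in 7160c2. T cell low clones spanned 22.5 to 51.0 CPM with a median of 35.1. The T cell high clones thus held both the highest and the lowest values, and the log2 fold change was 0.05 (SE 0.31). Clones 6421c2 and 6555c3, at the opposite ends of the T cell high group at Wnt7a, were both low at Wnt5a. The peak at the lower end of the gene record (chr14:28504523-28506366) was the most accessible, with 3.03 to 28.2 and 8.45 to 25.8 CPM, which gave a log2 fold change of -0.24 (SE 0.41). A peak 13501 bp outside the gene (chr14:28490420-28491042) reached 35.4 CPM in 2838c3, against 3.36 to 13.6 CPM in the other T cell high clones and 2.65 to 12.1 in T cell low clones. Its log2 fold change was 0.86 (SE 0.52, edgeR adjusted p 0.797), and -0.02 without 2838c3. Of the 5 peaks, 2 had fold changes above 0 and 3 below. The lowest was -0.92 (SE 0.48, edgeR adjusted p 0.756) in the gene body (chr14:28506467-28506920), a peak named after its values were seen. It spanned 0.42 to 4.13 CPM in T cell high and 2.94 to 8.20 CPM in T cell low clones, with 1 read in 6555c3.

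Wnt11, a ligand of cell movements in the embryo, had 3 peaks. The peak at 2 tRNA genes, 18441 bp outside the record, held 84.7% of the window of chr7:98835084-98854747. The window spanned 38.4 to 59.4 CPM in T cell high and 39.2 to 73.6 CPM in T cell low clones, which gave a log2 fold change of -0.21 (SE 0.19), and -0.49 without the tRNA peak. The tRNA peak itself (chr7:98814902-98816643) had a log2 fold change of -0.15 (SE 0.21). The peak over the second start printed above (chr7:98838725-98839104) held 1.55, 6.36, 2.59, 1.68, 2.95 and 2.92 CPM in the T cell high clones and 2.79 to 5.89 CPM in the T cell low clones, which gave a log2 fold change of -0.58 (SE 0.43). Its neighbour (chr7:98837911-98838295) spanned 1.68 to 5.68 and 1.36 to 5.64 CPM, which gave a log2 fold change of -0.38 (SE 0.45). These 2 small peaks rest on 2 to 37 reads per library.

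**Figure D4:**
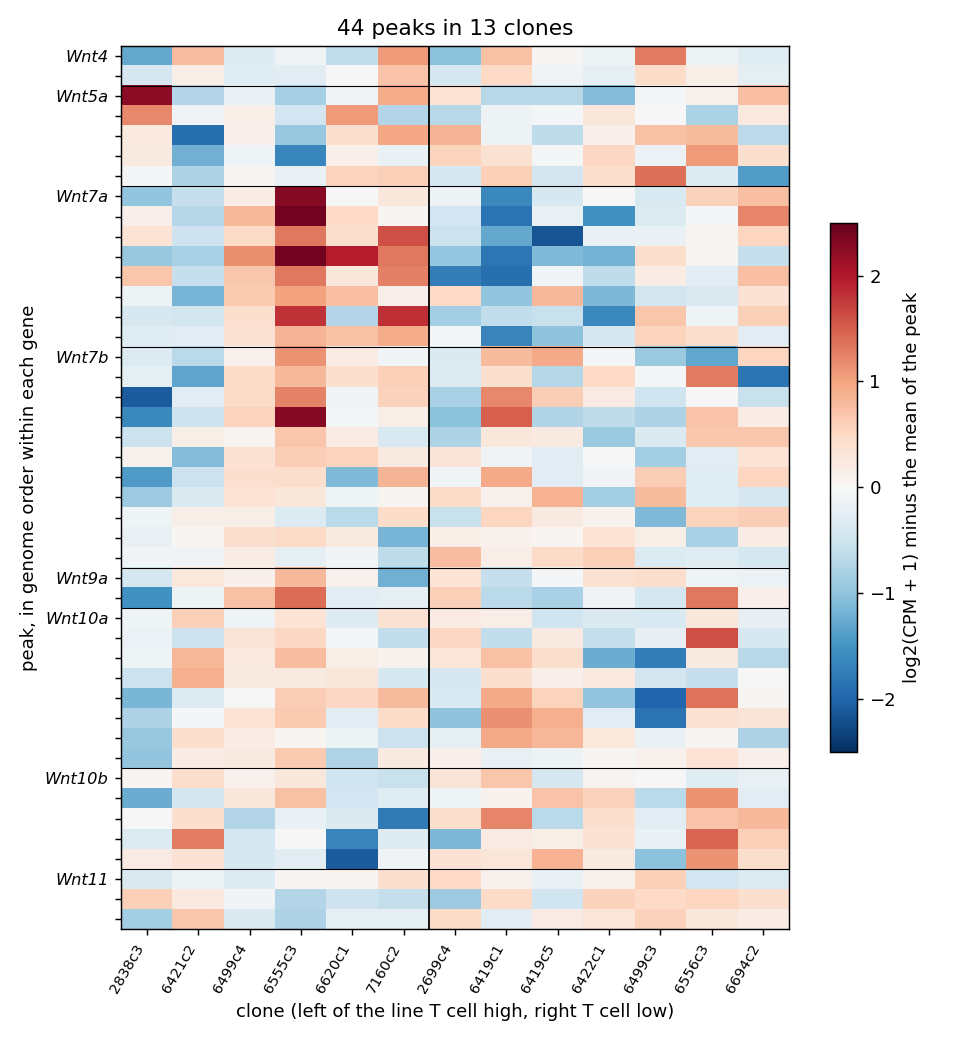
Accessibility of the 44 peaks (rows) in the 13 clones (columns), as log2(CPM + 1) minus the mean of the peak; red is above and blue below that mean. Clone 6555c3 is the highest at 14 peaks and 2838c3 the lowest at 10.

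Clone 6555c3 was the highest of 13 at 14 of the 44 peaks (31.8%), against 10.4% of all tested peaks. Of these, 6 lay at Wnt7b, 5 at Wnt7a, 2 at Wnt9a and 1 at Wnt10a, with 0 at Wnt4, Wnt5a, Wnt10b and Wnt11. Clone 2838c3 was the lowest at 10 (22.7%), against 7.7% of all tested peaks. Peaks of 1 gene share their surroundings, and these shares are descriptions with no test. Both clones belong to the T cell high group. The SD of log2 CPM over clones was 1.05 for the Wnt7a window, 0.66 for Wnt5a, 0.59 for Wnt4, 0.58 for Wnt9a, 0.46 for Wnt10b, 0.39 for Wnt10a, 0.38 for Wnt7b and 0.30 for Wnt11. The median over all tested windows was 0.36, and 97.3% of them varied less than Wnt7a. Windows that sum fewer reads vary more from counting alone, and this part of the spread was not separated.

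Levels were compared between genes per kb of the peak nearest the start or record end, over all 13 clones. No start was listed for Wnt5a, Wnt7b and Wnt10a, so their peaks were those nearest either record end, which need not be the start. The Wnt10a peak lay 497 bp from a record end, and the Wnt10b peak lay 1252 bp from its listed start. The order therefore does not rank accessibility at starts. Wnt10a stood first with 24.5 ± 8.23 CPM per kb (SD), followed by Wnt9a with 16.5 ± 5.64. Then came Wnt4 with 11.8 ± 6.99, Wnt7b with 11.3 ± 4.75, Wnt10b with 10.7 ± 6.03, Wnt11 with 10.1 ± 4.08, Wnt7a with 9.45 ± 4.56 and Wnt5a with 8.66 ± 4.33. From Wnt9a down, each gap between neighbours was smaller than either SD.

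The genes whose windows followed a member most closely were sought over 5 Mb away, by the root mean square difference of mean-centred log2 CPM over 13 clones. For Wnt7a they were Nt5c1a and Hpcal4, neighbours on chromosome 4 with identical sums, at 0.49 against a median of 1.08 over 13204 genes. For Wnt5a they were Glra3 (0.33) and Krt39 (0.34), against a median of 0.71. For Wnt4 they were Sf3b5 (0.32) and Pkhd1l1 (0.33), against 0.64. These are descriptions, and the genes were picked for their likeness.

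Of 78 other genes of the pathway, 67 had a tested window and 0 passed the adjusted threshold. An unadjusted p under 0.05 was reached by 10, or 14.9%, against 6.62% of all windows. Of these genes 3 were higher and 7 lower in T cell high, against 2.82% and 3.8% of all windows. Fold changes were above 0 at 22 and below 0 at 45, with a median of -0.07 on the log2 scale, against -0.03 over all tested windows. Some of the listed ligands share peaks with members: Wnt6 shares 4 with the Wnt10a window and Wnt3a shares 2 with the Wnt9a window. Among other ligands the smallest p was that of Wnt1 (log2 fold change -0.63, SE 0.24), which shares 4 peaks with the Wnt10b window and is no separate measurement. For secretion it was Porcn (-0.18, SE 0.23). Among receptors it was the Frizzled receptor Fzd8, with means of 15.5 CPM in T cell high (SD 10.9, n = 6) and 41.3 CPM in T cell low (SD 22.4, n = 7). Its log2 fold change was -1.49 (SE 0.40, edgeR adjusted p 0.49). The other 2 receptors with an unadjusted p under 0.05 were Frizzled genes with fold changes above 0. Fzd3 had medians of 12.5 CPM in T cell high and 3.22 CPM in T cell low (log2 fold change 2.28, SE 0.66, edgeR adjusted p 0.527). Its values ran from 0 in 6620c1 to 37.0 CPM in T cell high and from 0 in 6422c1 to 4.42 CPM in T cell low. Fzd1 had medians of 77.8 and 66.96 CPM (0.46, SE 0.22, edgeR adjusted p 0.743). Both were named after their values were seen. Among secreted inhibitors it was Wif1 (0.26, SE 0.25). For the R-spondin axis, which amplifies WNT signals, it was the receptor Lgr5, with 68.8 ± 21.5 CPM and 42.4 ± 10.1 CPM (log2 fold change 0.70, SE 0.22, edgeR adjusted p 0.609). Among cytoplasmic components it was Apc, part of the complex that degrades beta-catenin (-0.49, SE 0.17), and among TCF factors Lef1 (-0.84, SE 0.33). Among targets it was Myc, whose difference of -2.97 (SE 0.81) rested on 4637 CPM in 2699c4 and was -0.35 without that clone. The remaining genes with an unadjusted p under 0.05 were both lower in T cell high. They were the cytoplasmic component Dvl3 (-0.39, SE 0.15, edgeR adjusted p 0.717) and the TCF co-factor Pygo2 (-0.32, SE 0.16, edgeR adjusted p 0.746). Dvl3 and Pygo2 were also named after their values were seen.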

How the data were processed

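The authors deposited raw read counts in merged peaks, made with featureCounts 1.5.3, per the file headers, whose alignment names carry the word nodup. The genome build mm10 and DESeq2 are named in the submitters' processing notes. For the aligner, peak caller, merging rule and transposase shift, details were not given in the sources used here. Both reads of a fragment can count, so counts are not independent molecules. The 2 T cell intermediate samples were not analysed here.

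Peaks were linked to GRCm38.p6 gene records within 20 kb. In R 4.3.3, peaks and gene windows (summed counts) passing filterByExpr were TMM-scaled and tested two-sided with edgeR 4.0.16 (glmQLFit, glmQLFTest), with p adjusted over all tested features. Here p-values set the group difference against the variation between libraries, in which differences between clones and between single tumours are mixed. The main fit counted 6419c1 and 6419c5 as separate clones. DESeq2 1.42.0, limma 3.58.1 (voom), other scaling, filtering, distances, regional offsets (2 Mb), summed 6419 clones and each library left out were alternatives. On simulated counts for this comparison, the peak test (56532 peaks) called 20.5% of 2-fold and 62.2% of 4-fold increases but 7.69% of 2-fold and 56.4% of 4-fold decreases. The window test (16729 windows) called 77.5% of 2-fold changes in each direction. Simulated counts were drawn independently for each peak or window, without shared peaks or variation common to a region or a clone. These shares need not hold for the real counts, and a member that was not called is not shown to be unchanged. Named for each gene were the peak nearest the start or record end, the highest, the most variable and those with an unadjusted p under 0.05, with peaks where 1 clone stood apart, followers of the 3 most variable windows, and the gene of each pathway list with the smallest p. Members and lists were chosen with earlier results of these data known.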

Additional observations from a re-analysis of the deposited data

Results flagged for a closer look

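In 6 of 58 groups examined, 1 clone lay apart from the rest of its group by more than Dixon's 95% limit. Chance passes it in about 1 group in 20, but that rate does not apply here, since many of the peaks examined were named for a wide spread over clones or a small p. The Wnt5a, Wnt7b and Wnt10b peaks below were named for their spread and the Wnt7a peak for its p, so these values are descriptions. At the Wnt5a peak chr14:28490420-28491042, 2838c3 had 35.4 CPM and the next T cell high clone 13.6. At the Wnt7a peak chr6:91372750-91373389, 6555c3 had 34.4 CPM among T cell high clones, with the next at 10.7, and 6694c2 had 14.5 CPM among T cell low clones, with the next at 5.47. At the Wnt7b peak chr15:85538004-85538635, 6555c3 had 29.0 CPM and the next T cell high clone 8.09. At the Wnt10b peak chr15:98780083-98781037, 6421c2 had 25.7 CPM and the next 10.1. At the second Wnt11 start, chr7:98838725-98839104, 6421c2 had 6.36 CPM and the next 2.95.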

How the results depend on the processing

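The count of member peaks and of member windows passing the adjusted threshold was 0 under every alternative, and the smallest adjusted p over all of them was 0.0712, at the Wnt7a peak inside the gene without 2838c3. With each of the 13 libraries left out in turn, the Wnt7a window difference ranged from 0.85 (without 6555c3) to 1.41 and that peak from 1.64 to 2.41 on the log2 scale. Of 41 named differences, 10 changed sign under a setting other than leaving out a library, and 27 kept their direction throughout. The Wnt5a window was -0.16 with limma-voom, -0.14 with regional offsets, -0.041 with the 6419 clones summed, -0.33 over the gene body, -0.18 within 5 kb and -0.0037 within 50 kb. With limma-voom the Wnt7b window was -0.035, the Wnt7b peak at 85538004 was -0.028, the Wnt9a start peak 0.041 and the Wnt10a peak at 74805541 was 0.061. With regional offsets the Wnt10a window was -0.049, the Wnt9a start peak 0.080, the Wnt10b peak at 98762137 was 0.12 and Pygo2 0.024. The Wnt9a window was -0.025 with the 6419 clones summed, and Porcn 0.019 over the gene body. The cause of these changes was not tested. With libraries left out, the ranges that crossed 0 were -0.35 to 0.082 (Wnt4 window), -0.22 to 0.23 (Wnt5a window), -0.16 to 0.14 (Wnt7b window), -0.25 to 0.20 (Wnt9a window), -0.059 to 0.16 (Wnt10a window), -0.44 to 0.13 (Wnt4 start peak), -0.021 to 1.05 (Wnt5a peak at 28490420), -0.40 to 1.10 (Wnt7b peak at 85538004), -0.22 to 0.13 (Wnt9a start peak), -0.27 to 0.45 (Wnt9a second peak), -0.36 to 0.12 (Wnt10a peak at 74805541) and -0.17 to 0.073 (Wnt10b peak at 98762137). The alternative without peaks within 1 kb of other protein-coding genes' starts or over tRNA genes was chosen after seeing the data. Replicate numbers were given by accession order and do not pair clones. A fit with the leading clone number as a block, which would join 6499c4 with 6499c3 across the groups, was not run. Shallow libraries limit the small peaks: 7160c2 had 1 read at the Wnt10b peak nearest its start.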
